A study of Mus musculus with 21 samples.

Results

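The genes described here encode the proteins that assemble the small (40S) subunit of the ribosome in the nucleolus. They were chosen by symbol, as 43 genes of the small subunit processome and of the later pre-40S steps, out of 20900 genes in the deposited table. All 43 were in the table, and all 43 were among the 14666 genes with enough signal to test.

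In the nucleolus, RNA polymerase I transcribes a long precursor RNA that holds the small-subunit rRNA behind a leader called the external transcribed spacer. The UTP-A and UTP-B complexes bind that leader as it emerges, the U3 snoRNP pairs with it, and with many further factors they form the small subunit processome, a particle larger than the subunit it builds. Helicases and a GTPase then take the particle apart, and a last set of factors accompanies the pre-40S particle to the cytoplasm, where the rRNA end is cut. The mRNAs of these factors are made by RNA polymerase II, and rapidly dividing embryonic stem cells are known for high ribosome production.

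Poly(A) RNA was measured in E14 cells, a mouse embryonic stem cell line of 129 strain kept in serum medium with LIF. Cells plated the day before received fresh medium with 1 µM BMH-21 or 1 µM CX-5461, both small-molecule inhibitors of RNA polymerase I, for 2, 4 or 8 h. The comparison group was untreated cells at 0 h, which serves all 6 comparisons with control. With 3 libraries in each of 7 groups there were 21 libraries. Hours in fresh medium and hours of inhibitor cannot be told apart with a 0 h control. All groups come from 1 cell line, and no source used here says that replicates were separate cultures, so the p-values measure only the spread between these libraries. In bulk RNA, fewer cells with a transcript and less of it per cell cannot be told apart.

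Library totals were 46604397 to 62812641 reads, and members had 1332 to 20836 reads in each library, so counting error was small beside the differences described. Values are log2 levels: the deposited log2 value, shifted in each library so that the median over the genes tested is the same in all 21. A difference of 1 is 2-fold, and changes are relative to that median, not amounts per cell. Without this shift, all differences in a comparison move by 1 constant, which was -0.21 for BMH-21 at 8 h, 0.22 for CX-5461 at 8 h, and between -0.16 and -0.08 for the 4 other comparisons with control. The stem cell markers, 11 of 11 tested, were lower at 8 h of BMH-21 for all 11 (median -1.73) and for 9 at 8 h of CX-5461, with 1 higher. Their summed linear level was 7170 to 7310 in untreated libraries, 3240 to 3750 at 8 h of BMH-21 and 5090 to 5160 at 8 h of CX-5461. The 7 fibroblast markers summed to 30.8 to 31.8 in untreated libraries, 43.3 to 48.4 at 8 h of BMH-21 and 35.1 to 36.7 at 8 h of CX-5461. The 6 extraembryonic endoderm markers summed to 13.5 to 15.1, 12.1 to 12.3 and 11.7 to 13.0 in the same groups. These sums hide opposite directions. Of the 3 fibroblast markers tested, 1 was higher and 1 lower at 8 h of either inhibitor. Under BMH-21 they ranged from -1.20 (Thy1) to 2.07 (Col1a1). Of the 4 endoderm markers tested, 2 were higher and 2 lower at 8 h of BMH-21, and 1 higher and 2 lower at 8 h of CX-5461. None of the 24 markers was at 0 reads throughout a group, and the part of these shifts in the values below was not tested.

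Most assembly genes were lower after 4 h and after 8 h of either inhibitor, and under BMH-21 they were lower at 8 h than at 4 h. By limma with Benjamini-Hochberg adjustment over all genes tested, at an adjusted p under 0.05, 39 of 43 members fell at 8 h of BMH-21 and 2 rose. Among all genes tested 51.3% fell and 33.3% rose in that comparison. For CX-5461 at 8 h, 42 of 43 members fell and 0 rose, against 44.7% and 29.3% of all genes. The median member stood at -0.78 under BMH-21, a level 41.9% lower, and at -0.48 under CX-5461, 28.2% lower, while the median of all genes was -0.19 and -0.11. With other library scalings the member median at 8 h lay between -0.995 and -0.44 for BMH-21 and between -0.38 and -0.20 for CX-5461. As deposited, without the shift, 23 of 43 members fell at 8 h of CX-5461. The share of all genes that fell was not counted on that scale, where the median of all genes was 0.11.

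Falls of more than 2-fold occurred in 7 members at 8 h of BMH-21: Emg1, Dimt1, Utp18, Tbl3, Wdr75, Imp4 and Rrp7a, the last just past that size. None passed that size at 8 h of CX-5461. Of all genes tested, 11.6% and 1.16% were that much lower. A level at least 0.5 lower was seen in 33 members under BMH-21 and in 18 under CX-5461, beside 31.9% and 13.4% of all genes. These sizes depended on the scaling. For BMH-21, 21 members were past 2-fold as deposited, 1 with median-ratio factors and 1 after quantile normalization. Of all genes, 18.4%, 8.25% and 13.8% were. The members' share past 2-fold was above that of all genes on the centred scale and as deposited. It was below with median-ratio factors and after quantile normalization. At least 0.5 lower were 36, 25 and 21 members, beside 44.2%, 24.4% and 31.7% of all genes. For CX-5461, 2, 9 and 2 members were at least 0.5 lower with those scalings, beside 4.56%, 8.48% and 14.7% of all genes. The members' share was thus near that of all genes as deposited and below it after quantile normalization. Past 2-fold were 0 members, beside 0.511%, 0.852% and 3.33% of all genes.

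At 4 h of BMH-21, 34 members fell and 3 rose, against 41.5% and 32.2% of all genes, and the median member was at -0.26. Under CX-5461, 36 fell and 2 rose, against 45.7% and 28.5%, and the median member was at -0.39. For CX-5461 the order of 4 h and 8 h depended on the scaling: the member medians at 4 and 8 h were -0.55 and -0.26 as deposited and -0.22 and -0.20 after quantile normalization. At 2 h few members had moved: 9 fell and 7 rose under BMH-21 (17.5% and 18.6% of all genes), and 7 fell and 2 rose under CX-5461 (17.8% and 15.8%). Under BMH-21 these shares of the members, 20.9% and 16.3%, are near those of all genes. Under CX-5461 the 16.3% that fell is near, and the 4.65% that rose is below. The 7 rises at 2 h of BMH-21 became 2 without untreated replicate 1, 4 without untreated replicate 3, 3 without BMH-21 replicate 2 and 2 without BMH-21 replicate 3. The 2 rises at 2 h of CX-5461 became 1 without untreated replicate 1 or 3, or without CX-5461 replicate 2 or 3. As deposited, 0 members rose at 2 h of either inhibitor. At 4 h of BMH-21, the 3 rises became 5 without BMH-21 replicate 1.

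The median over the 43 members was also taken in each single library. It was 7.35 to 7.39 in the untreated libraries, 7.07 to 7.15 at 4 h and 6.62 to 6.67 at 8 h of BMH-21. Under CX-5461 it was 7.0 to 7.03 at 4 h and 6.88 to 6.93 at 8 h. At 2 h it was 7.37 to 7.46 under BMH-21 and 7.35 to 7.38 under CX-5461, overlapping the untreated libraries. The groups at 4 h and at 8 h did not overlap each other or the untreated group on this scale. As deposited, the CX-5461 medians were 6.83 to 7.08 at 4 h and 7.17 to 7.22 at 8 h, so the later group was the higher one, and it overlapped the BMH-21 group at 4 h (6.90 to 7.21). At 8 h of CX-5461, all 43 members had their 3 libraries below the 3 untreated ones, against 47.1% of all genes, and 0 lay wholly above (30.9%). As deposited this held for 29 members, with median-ratio factors for 40, and after quantile normalization for 33, with 4 wholly above. For BMH-21 at 8 h, 39 lay wholly below (50.4% of all genes) and 1 wholly above (32.8%), and 36 to 41 lay wholly below with the other scalings. These shares of all genes were counted on the centred scale only, so they do not apply to the counts with other scalings.

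**Figure D1:**
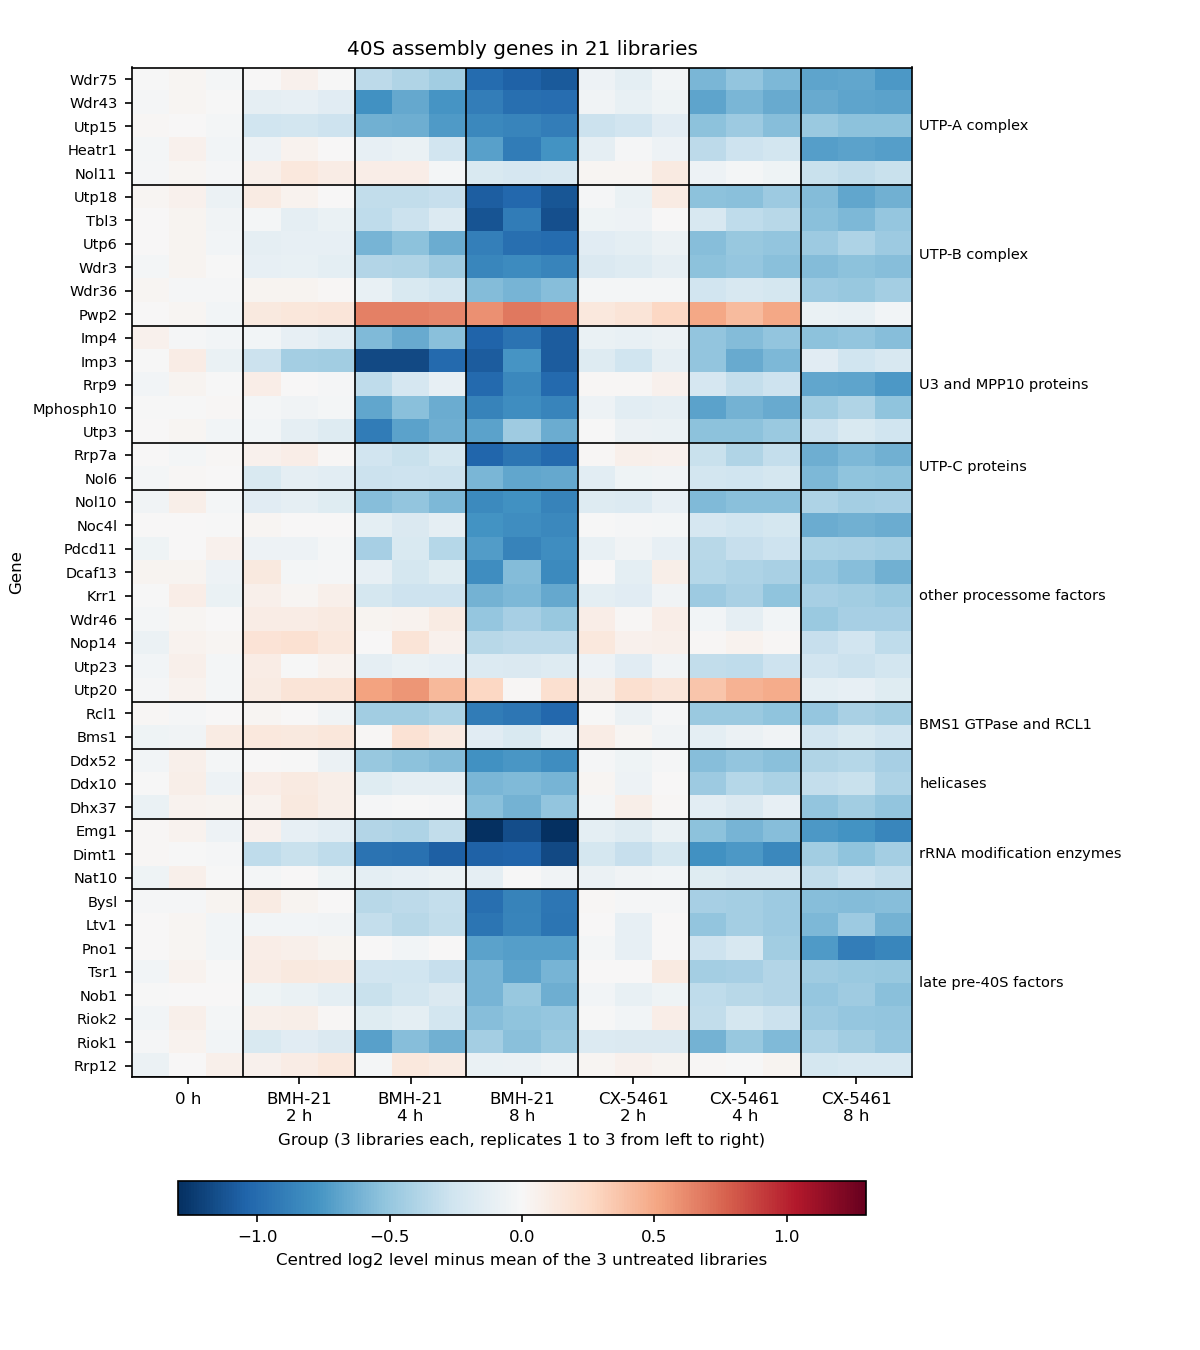
Level of each of the 43 genes (vertical axis, grouped by role) in each of the 21 libraries (horizontal axis, 3 per group), as the centred log2 level minus the mean of the 3 untreated libraries. Blue is lower and red higher; the columns for BMH-21 at 8 h are blue for most genes (39 of 43 fell), with Pwp2 and Utp20 red at 4 h of both inhibitors.

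**Figure D2:**
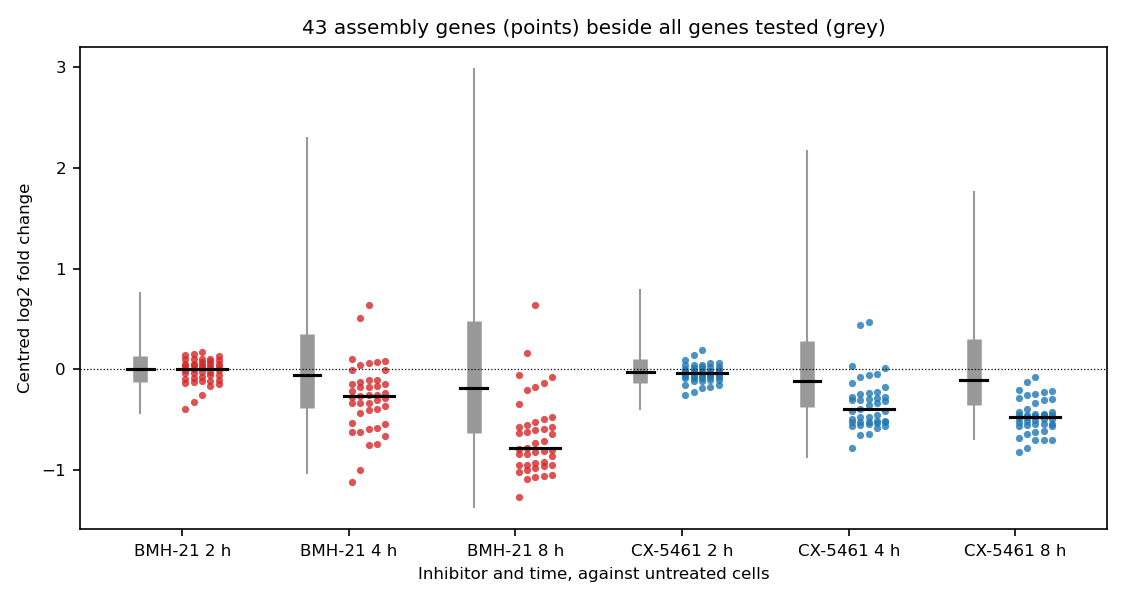
Centred log2 fold change against untreated cells (vertical axis) of the 43 genes (points, red for BMH-21 and blue for CX-5461) beside all 14666 genes tested, for each inhibitor and time (horizontal axis). Grey bars span the quartiles and grey lines the 5th to 95th percentiles of all genes, and black bars are medians; at 8 h the member medians are -0.78 and -0.48.

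The promoters of 5 members with different courses are shown. Emg1 and Ltv1 fell at 4 and 8 h of both inhibitors, and Pwp2 and Utp20 rose at 4 h. Imp3 had its lowest mean at 4 h of BMH-21, where its libraries overlapped those at 8 h. Sequences are from RefSeq on GRCm38.p6, read 5′ to 3′ on the gene's strand, and cover up to 250 bases before the start, without bases that the annotation places in an exon of any gene. Capitals mark CCGGAAG, the core that ETS factors bind, or its reverse CTTCCGG. The windows are chr6:124712179-124712335 (Emg1, minus strand), chr10:13193169-13193387 (Ltv1, minus), chr10:78185150-78185399 (Pwp2, minus), chr10:88826815-88827064 (Utp20, minus) and chr9:56937250-56937474 (Imp3, plus).
Emg1: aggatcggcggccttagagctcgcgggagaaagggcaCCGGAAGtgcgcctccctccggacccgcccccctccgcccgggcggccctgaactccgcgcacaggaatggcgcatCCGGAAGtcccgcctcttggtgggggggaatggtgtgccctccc
Ltv1: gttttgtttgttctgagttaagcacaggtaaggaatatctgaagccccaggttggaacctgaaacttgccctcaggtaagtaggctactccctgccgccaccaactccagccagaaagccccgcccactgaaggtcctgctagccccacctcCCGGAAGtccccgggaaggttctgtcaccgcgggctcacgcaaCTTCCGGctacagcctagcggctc
Pwp2: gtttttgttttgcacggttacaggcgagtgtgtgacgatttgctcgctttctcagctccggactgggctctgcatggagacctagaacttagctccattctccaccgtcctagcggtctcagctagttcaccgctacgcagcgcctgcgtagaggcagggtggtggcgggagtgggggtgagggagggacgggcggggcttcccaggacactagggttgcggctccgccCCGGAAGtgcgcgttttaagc
Utp20: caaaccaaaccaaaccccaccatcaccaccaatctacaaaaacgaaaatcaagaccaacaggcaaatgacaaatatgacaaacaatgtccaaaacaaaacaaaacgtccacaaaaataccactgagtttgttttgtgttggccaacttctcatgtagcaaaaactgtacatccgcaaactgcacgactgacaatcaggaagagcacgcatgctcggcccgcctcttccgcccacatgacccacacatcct
Imp3: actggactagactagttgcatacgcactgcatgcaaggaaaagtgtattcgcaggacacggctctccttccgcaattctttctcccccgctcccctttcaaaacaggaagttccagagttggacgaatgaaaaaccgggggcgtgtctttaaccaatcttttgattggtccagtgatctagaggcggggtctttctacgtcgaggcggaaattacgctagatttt

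Emg1 and Ltv1 each held the letters at 2 places, Pwp2 at 1, and Utp20 and Imp3 at none within these windows. Of the 7 members past 2-fold at 8 h of BMH-21, Emg1 and Utp18 held the letters within 250 bases. Dimt1, Wdr75, Imp4 and Rrp7a did not, and Tbl3 had no promoter entry. A promoter entry was matched for 36 of the 43 members. Over 250 bases before the start, on both strands, CCGGAAG was present in 13 of these 36 (36.1%), in 14.5% of the 11000 tested genes with a window and in 7.8% of all 27025 genes of the table. The E-box CACGTG, the core that MYC binds, was present in 5 of 36 (13.9%), beside 9.6% of tested genes. GGGCGG, the core for SP factors, was in 55.6% of members and 62.6% of tested genes, and CCAAT in 50.0% and 40.5%. The letters CTCGCGAG, the NRF1 motif and the YY1 letters AAGATGGCG were each found in 1 member (2.8%), beside 1.7%, 1.8% and 1.3% of tested genes. The median change at 8 h of BMH-21 was -0.80 in the 13 members with CCGGAAG and -0.81 in the 23 without. For CX-5461 these medians were -0.45 and -0.50.

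The UTP-A complex is the first to bind the leader, and its members are also needed for transcription of the rRNA genes. Of its 5 members, 5 fell at 8 h of both inhibitors, with medians of -0.86 and -0.69. Wdr75, a WD-repeat subunit, had 7.71, 7.74 and 7.69 in untreated libraries, 7.37, 7.32 and 7.26 at 4 h of BMH-21, and 6.71, 6.66 and 6.62 at 8 h. Under CX-5461 it had 7.12, 7.20 and 7.13 at 4 h and 7.03, 7.04 and 6.97 at 8 h. Neither inhibitor's libraries reached the untreated range at these times. The change at 8 h was -1.05 (SE 0.04, adjusted p = 7.8e-18) under BMH-21 and -0.70 (SE 0.04, adjusted p = 7.9e-14) under CX-5461. Heatr1, the large HEAT-repeat subunit, went from 8.55, 8.63 and 8.54 to 7.87, 7.66 and 7.80 at 8 h of BMH-21 and 7.86, 7.88 and 7.86 at 8 h of CX-5461. The inhibitors' libraries overlapped there, and the difference between them was -0.09 (95% interval -0.19 to 0.01). As deposited, differences between the inhibitors at 8 h move by -0.43, so that of Heatr1 is larger on that scale. Utp15 fell by 2 h, from 6.92, 6.91 and 6.87 to 6.64, 6.66 and 6.63 under BMH-21 and 6.62, 6.65 and 6.75 under CX-5461. Wdr43 went from 8.43, 8.47 and 8.44 to 7.66, 7.78 and 7.68 at 4 h of BMH-21 and 7.76, 7.85 and 7.79 at 4 h of CX-5461, all below the untreated range. Nol11 was at 7.73, 7.77 and 7.73 in untreated libraries, 7.55, 7.52 and 7.54 at 8 h of BMH-21 and 7.45, 7.42 and 7.45 at 8 h of CX-5461. It moved least of the 5, at -0.21 under BMH-21 and -0.31 under CX-5461 at 8 h, and after quantile normalization it stood at 0.15 and 0.03.

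The UTP-B complex, which binds next to the U3 snoRNP, had 5 of 6 members lower at 8 h of either inhibitor, and Pwp2 was the exception. Utp18 had 7.76, 7.79 and 7.66 in untreated libraries, 7.42, 7.42 and 7.44 at 4 h of BMH-21 and 6.67, 6.72 and 6.62 at 8 h. Under CX-5461 it had 7.20, 7.19 and 7.26 at 4 h and 7.17, 7.06 and 7.11 at 8 h. Utp18 was thus higher under BMH-21 than under CX-5461 at 4 h and lower at 8 h, with no overlap at either time. Tbl3 fell by 1.06 at 8 h of BMH-21 and by 0.54 at 8 h of CX-5461, Utp6 by 0.96 and 0.45, Wdr3 by 0.84 and 0.55, and Wdr36 by 0.57 and 0.47. Tbl3 overlaps Noxo1 on the opposite strand over 25.8% of its exonic bases, and the strand setting of the authors' counting is not given in the sources used here.

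Pwp2, a scaffold subunit of UTP-B, was at 7.42, 7.44 and 7.37 in untreated libraries and at 7.54, 7.56 and 7.57 at 2 h of BMH-21. It was at 8.06, 8.07 and 8.04 at 4 h and at 8.00, 8.10 and 8.06 at 8 h. Under CX-5461 the levels were 7.55, 7.58 and 7.68 at 2 h, 7.91, 7.82 and 7.91 at 4 h and 7.32, 7.31 and 7.37 at 8 h. All libraries at 2 and 4 h of both inhibitors lay above the untreated ones on the centred scale, and at 8 h only the BMH-21 libraries did. As deposited, Pwp2 was not called higher at 2 h of either inhibitor. The rise was 0.64 (SE 0.04, adjusted p = 1.9e-13) at 4 h of BMH-21, 56.2% above untreated, and 0.64 again at 8 h, and 0.47 at 4 h of CX-5461 (adjusted p = 8.3e-11). At 4 h of either inhibitor and at 8 h of BMH-21 it rose under each of the 4 scalings. The difference at 8 h of CX-5461 was -0.08 (adjusted p = 0.066), and 0.14 as deposited. The 2 inhibitors differed by 0.72 at 8 h (adjusted p = 4.9e-14), and by 0.29 as deposited.

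The U3 and MPP10 proteins hold the pairing between the U3 snoRNA and the precursor. All 5 fell at 4 h and at 8 h of both inhibitors, though Imp3 at 8 h of CX-5461 did not keep its call, as given below. Imp3 was at 5.95, 6.05 and 5.87 in untreated libraries, 5.68, 5.51 and 5.50 at 2 h of BMH-21, 4.78, 4.78 and 4.95 at 4 h, and 4.88, 5.19 and 4.88 at 8 h. Under CX-5461 it was at 5.79, 5.70 and 5.84 at 2 h, 5.44, 5.30 and 5.37 at 4 h, and 5.81, 5.70 and 5.75 at 8 h. The BMH-21 libraries were below the untreated ones from 2 h on. The CX-5461 libraries were lowest at 4 h and higher again at 8 h, just under the untreated range. The change under BMH-21 was -0.40 (adjusted p = 0.00012) at 2 h and -1.12 (SE 0.07, adjusted p = 1.1e-12) at 4 h, a level 54.0% lower. After 8 h of CX-5461 it was -0.21 (adjusted p = 0.013), -0.16 without untreated replicate 2 (adjusted p = 0.078), -0.18 without CX-5461 replicate 2 (adjusted p = 0.054), and 0.01 as deposited.

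Utp3, like Imp3 a gene with a single exon, also had its lowest means at 4 h. It went from 6.85, 6.87 and 6.81 to 5.93, 6.15 and 6.21 at 4 h and 6.15, 6.38 and 6.20 at 8 h of BMH-21, and to 6.31, 6.31 and 6.36 and then 6.56, 6.65 and 6.58 under CX-5461. By 8 h of CX-5461 it was lower by 0.25, but at 0.01 after quantile normalization. Imp4 went from 7.27, 7.19 and 7.17 to 6.17, 6.25 and 6.13 at 8 h of BMH-21 and 6.68, 6.70 and 6.66 at 8 h of CX-5461. Mphosph10, which carries Imp3 and Imp4, went from 7.39, 7.39 and 7.42 to 6.53, 6.59 and 6.54 and to 6.95, 7.01 and 6.88. For both genes the groups did not overlap, and the BMH-21 libraries were the lowest. Rrp9, the protein particular to the U3 snoRNP, was 0.22 lower at 4 h and 0.96 lower at 8 h of BMH-21. Both UTP-C proteins fell at 4 and 8 h with both inhibitors. Rrp7a went from 6.98, 6.94 and 6.99 to 5.94, 6.02 and 5.96 at 8 h of BMH-21 and 6.34, 6.39 and 6.35 at 8 h of CX-5461, with no overlap between the groups. Nol6 went from 8.24, 8.28 and 8.27 to 7.67, 7.59 and 7.60 and to 7.68, 7.74 and 7.73, again below the untreated libraries.

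Of the 9 other processome factors, 8 fell and 1 rose at 8 h of BMH-21, and 9 fell at 8 h of CX-5461. Nol10 went from 7.15, 7.28 and 7.17 to 6.37, 6.41 and 6.33 under BMH-21 and 6.80, 6.76 and 6.77 under CX-5461. Pdcd11, the large RNA-binding protein known in yeast as Rrp5, fell by 0.80 and 0.42, and Noc4l, the partner of Nop14, by 0.81 and 0.64. Nop14 itself was at 7.41, 7.54 and 7.52 in untreated libraries, 7.67, 7.69 and 7.63 at 2 h of BMH-21 and 7.13, 7.15 and 7.15 at 8 h. It was thus above the untreated range at 2 h, by 0.17 (adjusted p = 0.0016), and below it at 8 h, by 0.34. The 2 h rise of Nop14 was not called as deposited. By 8 h of CX-5461 it was lower by 0.29, but at 0.01 after quantile normalization. Utp23, at the lowest level per kb of all members, went from 5.32, 5.42 and 5.33 to 5.18, 5.17 and 5.19 at 8 h of BMH-21 and 5.11, 5.08 and 5.12 at 8 h of CX-5461. Krr1, a KH-domain protein, went from 7.08, 7.17 and 7.0 to 6.47, 6.50 and 6.42 and to 6.65, 6.63 and 6.60. Both genes were below the untreated range at 8 h.

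Utp20, a large HEAT-repeat scaffold of the processome, also rose at 4 h of both inhibitors. It was at 8.08, 8.14 and 8.07 in untreated libraries, 8.62, 8.67 and 8.52 at 4 h of BMH-21, and 8.46, 8.55 and 8.58 at 4 h of CX-5461. At 8 h it was at 8.37, 8.11 and 8.30 under BMH-21 and 7.97, 7.99 and 7.94 under CX-5461. The 4 h libraries lay above the untreated ones with both inhibitors, and at 8 h the BMH-21 libraries overlapped the untreated range. The rise at 4 h was 0.51 (SE 0.05, adjusted p = 8e-09) under BMH-21 and 0.43 (SE 0.05, adjusted p = 1.1e-07) under CX-5461, and it held under each of the 4 scalings. The change at 8 h of BMH-21 was 0.16 (adjusted p = 0.0073), 0.11 without BMH-21 replicate 1 (adjusted p = 0.073), and -0.05 as deposited. For CX-5461 it was -0.13 (adjusted p = 0.034), and 0.09 as deposited. The -0.13 became -0.11 without untreated replicate 2 (adjusted p = 0.12), -0.13 without CX-5461 replicate 1 (adjusted p = 0.067), and -0.11 without CX-5461 replicate 3 (adjusted p = 0.095).

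**Figure D3:**
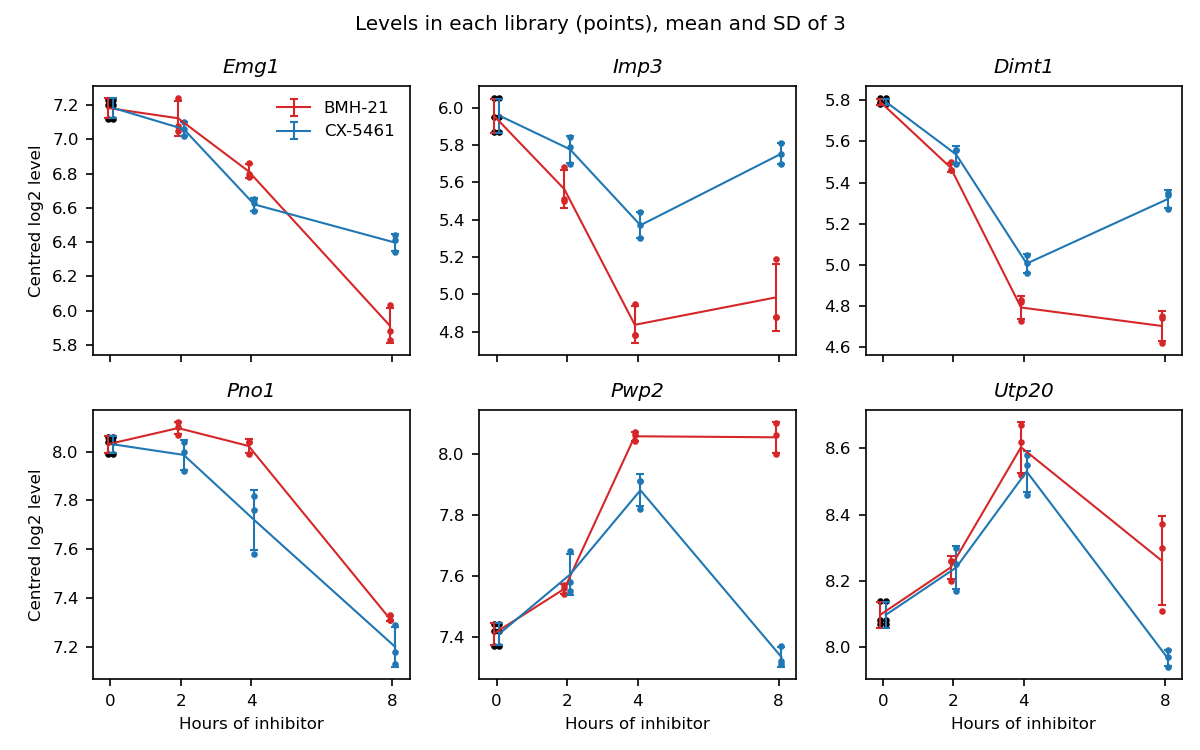
Centred log2 level (vertical axis) of 6 members in each library (points) against hours of inhibitor (horizontal axis), with lines through the means and bars of 1 SD over 3 libraries, red for BMH-21 and blue for CX-5461. Vertical axes differ between panels and do not start at 0. Emg1 falls to 5.83 to 6.03 at 8 h of BMH-21, while Pwp2 stands at 8.00 to 8.10 there and at 7.31 to 7.37 under CX-5461.

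Bms1, the GTPase of the processome, and its partner Rcl1 took different courses. Rcl1 went from 6.93, 6.89 and 6.91 to 6.46, 6.46 and 6.50 at 4 h and 6.00, 5.97 and 5.89 at 8 h of BMH-21. Under CX-5461 it stood at 6.43, 6.43 and 6.39 at 4 h and 6.41, 6.49 and 6.46 at 8 h. Bms1 was at 8.20, 8.21 and 8.36 in untreated libraries, 8.39, 8.38 and 8.40 at 2 h of BMH-21 and 8.27, 8.44 and 8.37 at 4 h. Its differences there were 0.14 (adjusted p = 0.024) and 0.11 (adjusted p = 0.044), and -0.04 as deposited at 4 h. The 2 h rise of Bms1 was not called as deposited. At 2 h the call was lost without untreated replicate 1 (0.11, adjusted p = 0.12) or 2 (0.11, adjusted p = 0.11) and without BMH-21 replicate 1 (0.14, adjusted p = 0.053) or 3 (0.13, adjusted p = 0.071). At 4 h it was lost without untreated replicate 1 (0.08, adjusted p = 0.19) or 2 (0.08, adjusted p = 0.16) and without BMH-21 replicate 2 (0.07, adjusted p = 0.24) or 3 (0.10, adjusted p = 0.095). Bms1 then stood at 8.11, 8.06 and 8.16 at 8 h of BMH-21 and 8.01, 8.06 and 8.01 at 8 h of CX-5461. Its difference at 8 h of BMH-21 was -0.14 (adjusted p = 0.0076), with the libraries all below the untreated ones. It was -0.09 without untreated replicate 3 (adjusted p = 0.083), 0.00 with median-ratio factors and 0.31 after quantile normalization.

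All 3 helicases fell at 8 h of both inhibitors. Ddx52 went from 6.98, 7.08 and 6.99 to 6.23, 6.26 and 6.21 at 8 h of BMH-21 and 6.63, 6.65 and 6.58 at 8 h of CX-5461. Ddx10 went from 7.49, 7.57 and 7.43 to 6.90, 6.92 and 6.89 and to 7.19, 7.21 and 7.10. For both genes the BMH-21 libraries were the lowest and no groups overlapped. Dhx37, which releases the U3 snoRNA from the particle, was at 6.56, 6.69 and 6.68 in untreated libraries, 6.63, 6.64 and 6.63 at 4 h and 6.10, 6.03 and 6.13 at 8 h of BMH-21. Its 4 h libraries lay inside the untreated range and its 8 h libraries below it.

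Among the enzymes that modify the small-subunit rRNA, Emg1 and Dimt1 had the largest falls of all members at 8 h of BMH-21, and Nat10 was one of the 2 members not called there. Emg1, a pseudouridine methyltransferase, was at 7.20, 7.23 and 7.12 in untreated libraries. It was at 6.80, 6.78 and 6.86 at 4 h and 5.88, 6.03 and 5.83 at 8 h of BMH-21, and at 6.65, 6.58 and 6.63 and then 6.44, 6.41 and 6.34 under CX-5461. The change at 8 h was -1.27 (SE 0.05, adjusted p = 7e-17), 58.5% lower, under BMH-21 and -0.78 (SE 0.05, adjusted p = 2.5e-12), 41.9% lower, under CX-5461. Its libraries at 4 and 8 h lay below the untreated ones with both inhibitors.

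Dimt1, the dimethyladenosine transferase, fell at 2 h already, from 5.81, 5.79 and 5.78 to 5.46, 5.50 and 5.46 under BMH-21 and 5.56, 5.49 and 5.56 under CX-5461. At 4 h it was at 4.83, 4.82 and 4.73 under BMH-21 and 5.01, 5.05 and 4.96 under CX-5461, and at 8 h at 4.74, 4.75 and 4.62 and at 5.34, 5.27 and 5.35. Under BMH-21 it stayed low at 8 h, and under CX-5461 it was higher at 8 h than at 4 h, by 0.31 (adjusted p = 2.2e-06) and by 0.32 to 0.68 with the other scalings. Its exons overlap Kif2a on the opposite strand over 37.3% of their bases. Nat10, the cytidine acetyltransferase, was at 7.57, 7.70 and 7.62 in untreated libraries, 7.51, 7.62 and 7.58 at 8 h of BMH-21 and 7.31, 7.36 and 7.32 at 8 h of CX-5461. The difference was -0.06 (95% interval -0.13 to 0.02, adjusted p = 0.15) under BMH-21 and -0.30 (adjusted p = 1.2e-07) under CX-5461, the latter at 0.01 after quantile normalization. As deposited, the difference under BMH-21 moves by -0.21.

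Of the 8 late pre-40S factors, 7 fell at 8 h of BMH-21 and 8 at 8 h of CX-5461. Bysl went from 7.35, 7.35 and 7.40 to 6.39, 6.50 and 6.43 under BMH-21 and 6.81, 6.80 and 6.81 under CX-5461. Ltv1, an export factor, fell by 0.92 and 0.55, Tsr1 by 0.64 and 0.48, and the endonuclease Nob1, which makes the last cut of the rRNA, by 0.57 and 0.50. Tsr1 overlaps Srr on the opposite strand over 34.2% of its exonic bases. The kinase Riok1 went from 5.69, 5.75 and 5.67 to 5.00, 5.15 and 5.08 at 4 h and 5.26, 5.16 and 5.22 at 8 h of BMH-21. At 8 h of CX-5461 it was at 5.30, 5.25 and 5.20, which overlaps the BMH-21 libraries and lies below the untreated ones. The kinase Riok2 fell by 0.52 and 0.50 at 8 h.

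Pno1, the partner of Nob1, was at 8.04, 8.06 and 7.99 in untreated libraries. At 4 h of BMH-21 it was at 8.04, 7.99 and 8.04, within the untreated range, and at 4 h of CX-5461 at 7.76, 7.82 and 7.58, below it. At 8 h it was at 7.33, 7.31 and 7.31 under BMH-21 and 7.29, 7.13 and 7.18 under CX-5461. The 4 h difference from untreated was -0.01 (adjusted p = 0.93) under BMH-21 and -0.31 (adjusted p = 7e-06) under CX-5461, and by 8 h both were lower, by 0.71 and 0.83. Rrp12, needed for export of the particle, was at 7.56, 7.65 and 7.71 in untreated libraries and 7.55, 7.56 and 7.59 at 8 h of BMH-21, a difference of -0.07 (adjusted p = 0.092). As deposited, that difference moves by -0.21. Rrp12 was lower by 0.22 at 8 h of CX-5461, but at 0.11 after quantile normalization.

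The inhibitors were compared at the same dose and time. At 2 h, 2 members were higher and 1 lower under BMH-21 than under CX-5461, against 7.83% and 7.58% of all genes, and these 3 calls were few and changed with the library left out. The 2 became 1 without BMH-21 replicate 1 or 3 or CX-5461 replicate 1, and 0 without CX-5461 replicate 2. The 1 became 0 without BMH-21 replicate 2 or 3 or CX-5461 replicate 1 or 3. Krr1 had the largest difference upward, 0.16, with 7.15, 7.11 and 7.15 under BMH-21 against 6.96, 6.94 and 7.04. At 4 h, 21 were higher and 5 lower under BMH-21, against 27.4% and 18.5% of all genes. That split depended on the scaling: 10 were higher and 9 lower with median-ratio factors, 5 and 9 after quantile normalization, and 2 and 1 as deposited. Imp3 was lower under BMH-21 at 4 h, by 0.53 (adjusted p = 2.8e-06). Pno1 was higher under BMH-21, by 0.30 (adjusted p = 3.5e-05).

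At 8 h, 28 members were lower and 6 higher under BMH-21 than under CX-5461, against 40.6% and 31.1% of all genes, and the median member differed by -0.26. The split was 25 lower and 8 higher with median-ratio factors, 28 and 8 after quantile normalization, and 40 and 1 as deposited. On the deposited scale the median of all genes in this comparison was -0.48. The shares of all genes were counted on the centred scale only. The largest differences were those of Imp3 (-0.77, 95% interval -0.92 to -0.62), Pwp2 (0.72, 0.64 to 0.80) and Dimt1 (-0.61, -0.70 to -0.52). The other 5 higher members were Utp20 (0.29), Nat10 (0.24), Rrp12 (0.14), Pno1 (0.12) and Nol11 (0.10). As deposited, these stood at -0.14, -0.19, -0.28, -0.31 and -0.33. The call of Pno1 was lost without BMH-21 replicate 1 (0.11, adjusted p = 0.083) or 3 (0.12, adjusted p = 0.066) and without CX-5461 replicate 2 (0.08, adjusted p = 0.19) or 3 (0.11, adjusted p = 0.10), and that of Nol11 without CX-5461 replicate 2 (0.09, adjusted p = 0.057). Riok1 and Riok2 did not pass the threshold, with differences of -0.04 (95% interval -0.13 to 0.05) and -0.03 (-0.11 to 0.06). As deposited, every difference in this comparison moves by -0.43, those of Riok1 and Riok2 included.

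The step from 4 to 8 h was compared within each inhibitor. Under BMH-21, 36 members fell and 2 rose over these hours, against 42.2% and 28.3% of all genes, with a median step of -0.37. The 2 risers were Utp3 (0.15) and Riok1 (0.13), and 0 were called without the 4 h replicate 1 of BMH-21 and 1 without its 8 h replicate 2. Under CX-5461, 25 fell and 7 rose, against 32% and 25.8%, with a median step of -0.12. As deposited, 0 fell and 24 rose under CX-5461, with a median step of 0.26, while the median step of all genes was 0.34. The direction of that step for most members thus depended on the scaling. The 7 risers under CX-5461 were Imp3 (0.38), Dimt1 (0.31), Utp3 (0.28), Mphosph10 (0.20), Ddx52 (0.14), Nol10 (0.12) and Riok1 (0.10). The largest falls under CX-5461 were those of Utp20 (-0.56), Pwp2 (-0.55) and Pno1 (-0.52), which were -0.19, -0.17 and -0.15 as deposited. Under BMH-21, Emg1 fell most, by 0.90, and Tbl3 by 0.79.

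The difference between the 2 steps was tested itself. The step was lower under BMH-21 in 31 members and higher in 3, against 36.2% and 24% of all genes, with a median difference of -0.26. The count of lower members was 22 with median-ratio factors, 23 after quantile normalization and 40 as deposited. On the deposited scale the median difference over all genes was -0.52. Shares of all genes were counted on the centred scale only. Emg1 had the largest difference, -0.68 (SE 0.07, adjusted p = 3.4e-08), followed by Utp18 at -0.65 and Rcl1 at -0.56. For Pwp2 the difference was 0.55 (SE 0.05, adjusted p = 8e-09), and 0.11 as deposited (adjusted p = 0.51). Utp20 and Nat10, at 0.22 and 0.17, were at -0.22 and -0.27 as deposited.

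**Figure D4:**
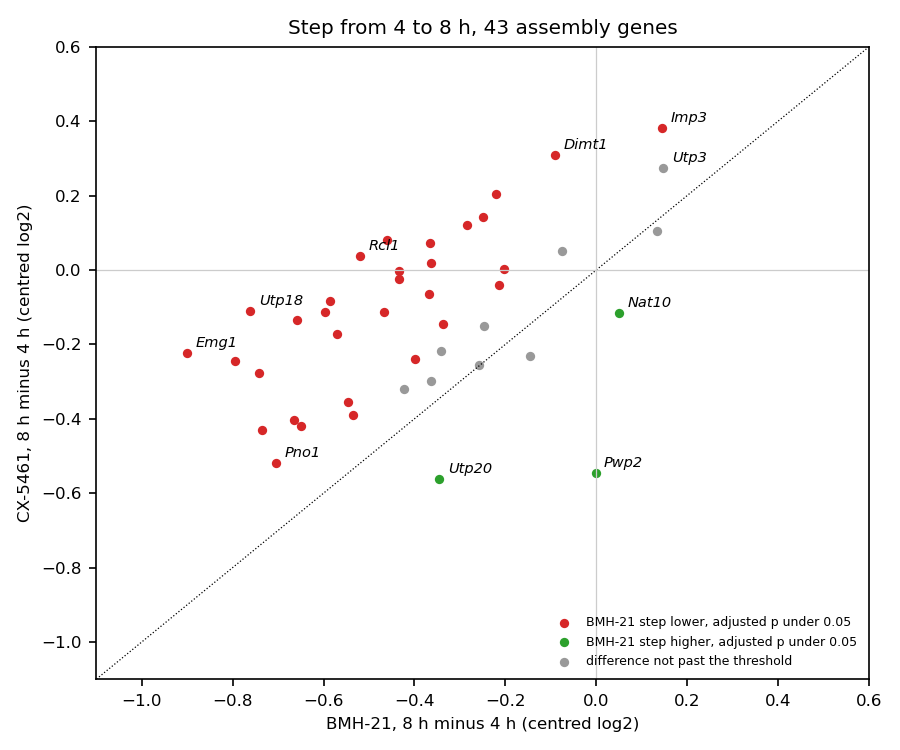
Change from 4 to 8 h (centred log2) of each of the 43 genes under BMH-21 (horizontal axis) and under CX-5461 (vertical axis). Red points have a lower step under BMH-21 (31 genes), green points a higher one (3 genes), grey points did not pass the threshold, and the dotted line marks equal steps; most points lie above that line.

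Another 33 genes of small-subunit assembly, listed by function, were all tested. Of these, 19 fell and 3 rose at 4 h of BMH-21 (41.5% and 32.2% of all genes), and 30 fell and 1 rose at 8 h (51.3% and 33.3%), with medians of -0.23 and -0.63. Under CX-5461, 29 fell and 1 rose at 4 h (45.7% and 28.5% of all genes) and 32 fell and 0 rose at 8 h (44.7% and 29.3%), with medians of -0.29 and -0.44. At 2 h, 1 fell and 4 rose under BMH-21 (17.5% and 18.6% of all genes), and 3 fell and 1 rose under CX-5461 (17.8% and 15.8%). The lowest at 8 h of BMH-21 were Cirh1a, the UTP-A subunit Utp4 under an older symbol, at -1.39, and Nop58, a core protein of methylating snoRNPs, at -1.29. The highest were Rrp36, at 0.15 (adjusted p = 0.0061) and -0.07 as deposited, and Riok3, at -0.05.

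Members differed in level and structure. Per kb of exon, the highest log2 levels in untreated cells were those of Rrp9 (7.55), Pno1 (7.40) and Emg1 (7.13), and the lowest were those of Utp23 (3.78), Riok1 (4.25) and Dhx37 (4.39). Across the 43 genes the number of exon blocks had a Spearman rho with the log2 fold change of 0.35 at 4 h and 0.35 at 8 h of BMH-21, and of 0.44 and 0.19 under CX-5461. In the same order, exonic length had 0.21, 0.22, 0.34 and 0.15, and gene span had 0.11, 0.22, 0.06 and 0.19. The untreated level per kb had 0.03, -0.17, -0.07 and -0.33. No rho over all genes was taken. These are descriptions over genes measured in the same libraries, and Imp3 and Utp3, with 1 block each, and Utp20, with 62, lie at the ends. The genes lie on 17 chromosomes. Of the 43, 16 overlap an annotated gene on the opposite strand in their exons, 3 of them over more than 20% of their exonic bases (Dimt1, Tsr1 and Tbl3), and 0 overlap one on the same strand.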

How the data were processed

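Poly(A) RNA of 21 libraries was sequenced with a directional kit, per the labels' protocols. The deposited values are log2 expression, normalized by the authors with voom, per the file's name. The submitters' processing notes name Trim Galore 0.5.0, TopHat2 2.1.1, R 4.0.5, DESeq2 1.30.1, edgeR 3.32.1, limma 3.46.0 and mm10; the annotation, the counting and its strand setting are not given in the sources used here. Whole reads could be recovered from 100.0% of values, taking off the voom offset of 0.5 reads. The library factors in the deposited values (0.832 to 1.375) differed from median-ratio factors (0.941 to 1.107), and their origin is not given in the sources used here; the main values were therefore centred on each library's median over tested genes.

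Genes with a log2 value above 0 in at least 3 libraries were tested (14666, with 6234 set aside). The test used limma 3.58.1 in R 4.3.3 as a linear model, with 1 mean per group over all 21 libraries and trended eBayes. It gave two-sided tests with Benjamini-Hochberg adjustment over all genes, at a threshold of 0.05. A check on simulated counts changed only a small part of the genes, so it could not test the centring where most genes change. Gene models came from GENCODE M21 on GRCm38, and promoters from RefSeq. The members, lists and comparisons were chosen with earlier results of these data known. Genes given with values per library were, by rule, the highest and lowest member of each role at 8 h of BMH-21, the 3 highest and 3 lowest members of each comparison with control, and the 3 largest differences between inhibitors at each time; not every group is printed for each, and others are given as summaries. Alternatives were 3 other scalings, 2 filters, a larger offset, 3 variance models, fits on the compared groups only, a replicate block and leaving out each library.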

Additional observations from a re-analysis of the deposited data

Results flagged for a closer look

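The step from 4 to 8 h differed between the inhibitors by a test of the difference itself. It was lower with BMH-21 in 31 of 43 members and higher in 3, against 36.2% and 24% of all genes. The lower count was 22 with median-ratio factors, 23 after quantile normalization and 40 as deposited, where the median of all genes was -0.52. The largest lower differences were those of Emg1 (-0.68), Utp18 (-0.65) and Rcl1 (-0.56). The 3 higher ones were those of Pwp2 (0.55), Utp20 (0.22) and Nat10 (0.17). As deposited, 0 members were called higher, and Utp20 and Nat10 were negative.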

How the results depend on the processing

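Member medians at 4 and 8 h against control stayed negative under all 4 scalings. Small counts and values near 0 moved, and their causes were not tested. Shares of all genes called were counted in the main fit only, so they do not apply to member counts under the other settings.

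As deposited, counts that moved were, against control, 0 higher and 3 lower at 2 h and 1 higher at 8 h of BMH-21, and 0 higher at 2 h and 23 lower at 8 h of CX-5461. BMH-21 against CX-5461 gave 0 higher and 0 lower at 2 h, 2 and 1 at 4 h and 1 higher at 8 h. From 4 to 8 h, 0 were higher with BMH-21, 24 higher and 0 lower with CX-5461 (median 0.26), and 0 higher in the difference of steps. With median-ratio factors, higher counts were 7 at 4 h of BMH-21, 5 at 2 h and 4 at 4 h of CX-5461, 1 at 2 h and 10 (with 9 lower) at 4 h between inhibitors, and 5 from 4 to 8 h of BMH-21. After quantile normalization BMH-21 had 7 at 4 h and 6 at 8 h, CX-5461 had 7 and 4, and there were 1 at 2 h and 5 (with 9 lower) at 4 h between inhibitors, 7 and 14 from 4 to 8 h of BMH-21 and CX-5461, and 5 in the difference of steps; the medians between inhibitors became -0.004 at 2 h and -0.008 at 4 h.

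With all genes of the table, or without the eBayes trend, 1 was higher at 2 h of CX-5461 and 0 lower between inhibitors at 2 h; without the trend 1 was higher from 4 to 8 h of BMH-21. With only the groups compared, 1 was higher between inhibitors at 2 h and 0 from 4 to 8 h of BMH-21. Of 63 same-numbered pairs of libraries, 1 correlated above 0.1 in the deviations from group means (range -0.25 to 0.11). Of 21 libraries, 4 correlated best with their own number. These values cannot show whether same-numbered libraries were prepared together. With the replicate block, 1 was higher at 2 h of CX-5461 and 0 lower between inhibitors at 2 h; other counts stayed within 1.5 times.

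Over the fits that left out 1 library, higher counts against control ranged from 2 to 7, 2 to 5 and 1 to 2 at 2, 4 and 8 h of BMH-21 and from 1 to 2 at 2 h of CX-5461. Between inhibitors at 2 h they ranged from 0 to 2, with 0 to 1 lower, and from 4 to 8 h of BMH-21 from 0 to 3. Medians ranged from -0.80 to -0.75 at 8 h of BMH-21, -0.42 to -0.37 at 4 h of CX-5461, -0.28 to -0.22 between inhibitors at 8 h, and -0.40 to -0.37 from 4 to 8 h of BMH-21.

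Over all 43 members, called or not, the sign differed between scalings for 5 to 9 members in the comparisons with control at 4 and 8 h, 14 and 20 at 2 h of BMH-21 and CX-5461, 22, 13 and 10 between inhibitors at 2, 4 and 8 h, 8 and 23 from 4 to 8 h of BMH-21 and CX-5461, and 8 in the difference of steps. Among called values of the genes chosen by rule, against control and between inhibitors at 8 h, those that changed sign were, as deposited, Bms1 at 4 h (-0.043) and Utp20 at 8 h (-0.05) of BMH-21, and Utp20 at 2 h (-0.005) and Imp3 (0.01) and Utp20 (0.087) at 8 h of CX-5461. Between inhibitors at 8 h they were Nat10 (-0.19), Nol11 (-0.33), Pno1 (-0.31), Rrp12 (-0.28) and Utp20 (-0.14). With median-ratio factors Bms1 was at 0.004 at 8 h of BMH-21. After quantile normalization Bms1 (0.31) and Nol11 (0.15) changed at 8 h of BMH-21, Dhx37 (0.034) and Nat10 (0.017) at 4 h of CX-5461, and at 8 h of CX-5461 Bms1 (0.14), Nat10 (0.007), Nol11 (0.03), Nop14 (0.011), Rrp12 (0.11), Utp20 (0.21) and Utp3 (0.014).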
